A study of Mus musculus with 7 samples.

Results

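The mitochondrial carriers are a large family of membrane proteins, named Slc25a with a number in the mouse, that move metabolites, nucleotides, cofactors and ions across the inner mitochondrial membrane. Nuclear genes encode all of them, and their proteins are brought into the inner membrane by the TIM22 import machinery. Carriers for ADP and ATP, phosphate, citrate, dicarboxylates, amino acids and acylcarnitines connect respiration and the citric acid cycle with lipid synthesis, redox balance and amino acid use in the cytosol. Members were taken by name, as the gene rows whose symbol is Slc25a followed by digits only, which gave 47 members among the 49585 genes listed. Related carriers under other symbols, such as the uncoupling proteins, are outside this rule.

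The RNA came from MS-1, an immortalised endothelial line of mouse pancreatic islet origin, grown in DMEM. The 4 LPL overexpression libraries came from MS-1 cells made to overexpress lipoprotein lipase, which frees fatty acids from circulating triglyceride, and the 3 control libraries came from MS-1 cells of genotype WT. The species of the LPL sequence, the vector and whether the overexpressing cells are 1 clone could not be read from the labels, and the controls analysed hold no vector-only library. Nothing in the labels ties the replicates to separate cultures, so p-values reflect the spread among these 7 libraries, which may be technical, and nothing wider. By its title the study set out to see what excess lipase does to these endothelial cells, and here that is followed across the carriers. Values are TPM (transcripts per 1000000, scaled by the authors for exonic length and library total) for levels, and log2 fold changes of LPL overexpression over control from edgeR's quasi-likelihood test on read counts. Values with ± are means and SD, with n = 4 for LPL overexpression and n = 3 for control. A gene is called where its Benjamini-Hochberg adjusted p over all 13639 genes tested is under 0.05.

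Sense reads numbered between 24328418 and 29210847 per library. Lpl itself stood at 136 to 146 TPM in the LPL overexpression libraries, against 0.0112 to 0.0713 TPM in the controls, so the labels fit the targeted gene. All 13 pigment-cell marker genes examined were called higher, with a summed level of 2217 to 2336 TPM in the LPL overexpression libraries and 2.81 to 2.88 TPM in the controls, where Tyrp1, Dct, Tyr, Mlana, Oca2 and Sox10 had no read. Genes with no control read could pass the filter on low counts only through the LPL overexpression libraries. Of 9 endothelial markers tested, 6 were called lower and none higher, and the summed level of all 10 was 3095 to 3209 TPM in the LPL overexpression libraries and 3624 to 3649 TPM in the controls. Cldn5, an endothelial tight junction gene, was close to unread in both groups, with 0 reads in the LPL overexpression libraries and 1 in the controls. Of the macrophage and blood markers 1 of 6 was tested, Cd68, and it was called higher. Their summed level was 250 to 273 TPM in the LPL overexpression libraries and 184 to 199 TPM in the controls, nearly all of it Cd68. Cd68 alone averaged 261 ± 11.1 TPM in LPL overexpression and 194 ± 8.67 TPM in control. Ptprc had 2 reads in LPL overexpression and 4 in control, and Lyz2 had 1 in each. Csf1r had 2 reads in LPL overexpression and none in control, and Adgre1 and Hbb-bs had none in either group. Mural and fibroblast markers summed to 3.51 to 3.86 TPM in the LPL overexpression libraries and 2.32 to 2.47 TPM in the controls, with 2 of 4 tested called higher. Islet, exocrine and epithelial markers summed to 15.0 to 17.8 TPM in the LPL overexpression libraries and 12.2 to 14.2 TPM in the controls, with 1 of 2 tested called higher and Ins1, Ins2, Cpa1 and Epcam at no read in either group. Adipocyte markers summed to 1.15 to 1.32 TPM in the LPL overexpression libraries and 0.950 to 1.27 TPM in the controls, and the 1 tested was not called. Each marker count stands beside backgrounds of 21.9% called higher and 21.3% called lower over all genes tested. The marker lists were chosen with earlier results of these data known, so these counts are descriptions and not tests. The marker levels differ between the same groups as the carriers do, and their part in the carrier differences was not tested. In bulk RNA, fewer cells of a type and less RNA per cell cannot be told apart.

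Most carriers differed little between LPL overexpression and control, and a small number stood apart. Of the 47 members, 38 had enough reads to be tested, and 17 of these 38 (44.7%) were called, against a background of 43.2% of all genes tested. There were 11 members called higher, or 28.9% against a background of 21.9%, and 6 called lower, or 15.8% against a background of 21.3%. On log2 TPM with limma the members divide into 12 higher and 2 lower, and with upper-quartile scaling into 13 higher and 5 lower, while the share of all calls that are higher, 50.7% in edgeR with TMM scaling, becomes 61.3% and 59.2%. The share of members called in either direction lies near that of all genes, so the number of calls does not set the family apart. The sizes of change were also like those of other genes, with a median log2 fold change of 0.02 over the 38 members and 0.00 over all genes, and a median absolute change of 0.11 over the members and 0.12 over all genes. In 29 of the 38 the absolute log2 fold change was under 0.2.

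The members past 1.5-fold were few and all of them were higher under LPL overexpression. Slc25a23, Slc25a35, Slc25a1 and Slc25a29 were called and at least 1.5-fold higher, which is 10.5% of the members tested against a background of 6.51%. No member was called and at least 1.5-fold lower, against a background of 1.96%, and at any p the lowest log2 fold change among these 38 members, in edgeR and in every alternative run, DESeq2 included, was -0.35. Members removed by the filter on low counts are not among the 38. For 17 of the 38 members (44.7%) the LPL overexpression and control libraries did not overlap in CPM, against a background of 44.6%. Among the 17 called members 14 had groups that did not overlap, and the matching count over all called genes was not taken. Calls and overlap come from the same counts, so this count is no separate support for the calls. Of the 17 called members, 13 changed by less than 1.5-fold. Of all 5888 genes called, 888 were at least 1.5-fold higher and 267 at least 1.5-fold lower, so most called genes also changed by less.

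**Figure D1:**
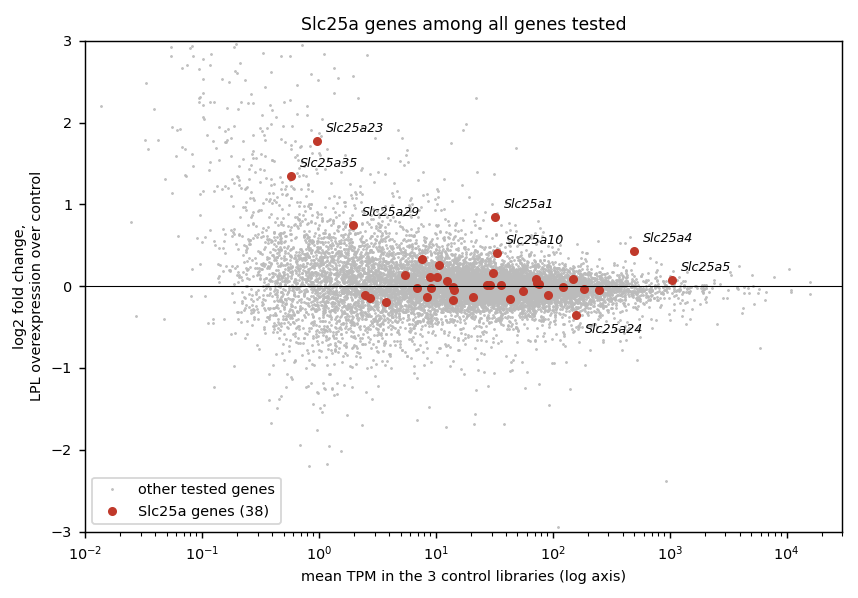
Log2 fold change (LPL overexpression over control, vertical axis) against mean control level in TPM (log horizontal axis) for the genes tested, with the 38 tested Slc25a members drawn over all other genes in grey. Of the members, in red, Slc25a23, Slc25a35, Slc25a1 and Slc25a29 lie highest, and most lie close to 0. The 339 genes beyond a log2 fold change of 3 in either direction or at a control level of 0.01 TPM or less are not shown, and none of them is a member.

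The family's transcripts were dominated by the ADP/ATP carriers. Summed over all 47 members, the level was 3445, 3493, 3461 and 3421 TPM in LPL overexpression replicates 1 to 4, against 3169, 3147 and 3162 TPM in control replicates 1 to 3. All 4 LPL overexpression libraries lie above all 3 controls, and no test was made of this sum. Slc25a4 and Slc25a5 together gave 52.0%, 52.7%, 51.8% and 52.0% of it in the LPL overexpression libraries, against 48.4%, 48.7% and 49.1% in the controls. In every library 7 members were over 100 TPM. The number over 10 TPM was 26 to 28 in the LPL overexpression libraries and 24 to 26 in the controls.

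**Figure D2:**
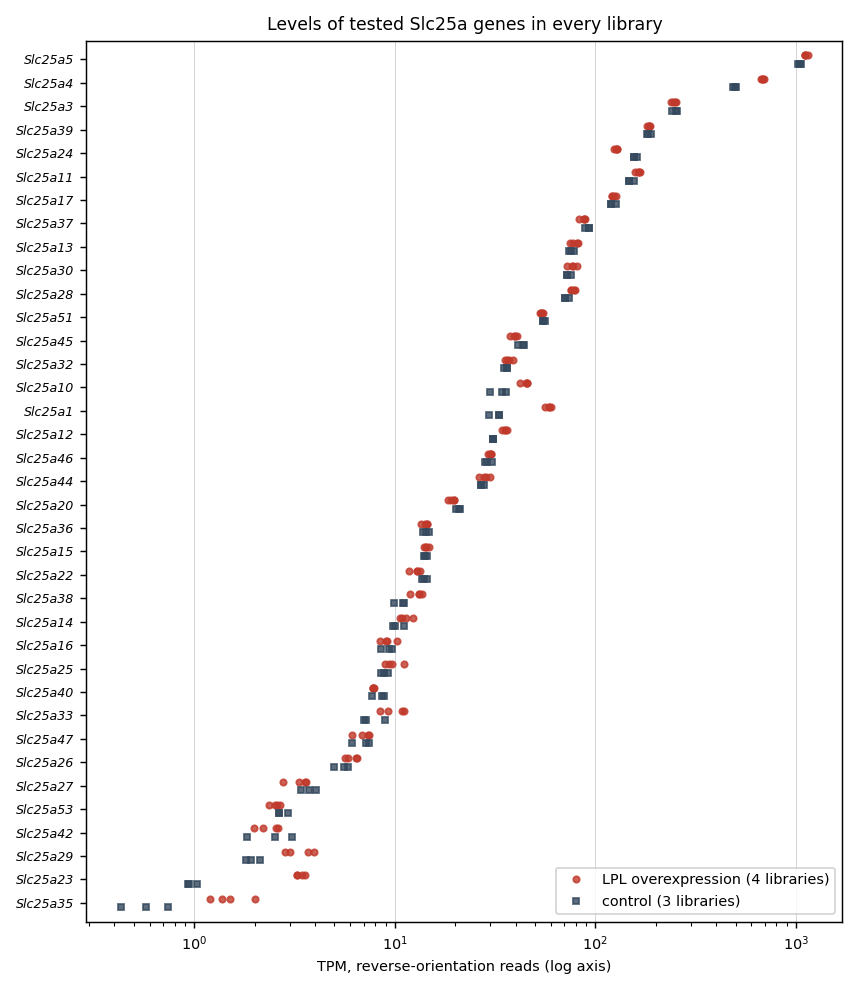
Level of 37 of the 38 tested members in TPM (log horizontal axis) in the 4 LPL overexpression libraries and the 3 control libraries, members ordered by control level. Levels run over more than 3 orders of magnitude, from Slc25a35 at the foot to Slc25a5 at the top, and the groups lie apart most clearly for Slc25a23 and Slc25a1.

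Carriers of ATP, ADP, phosphate and coenzyme A held the most abundant members and, among the 38 tested, the largest change. Of 9 tested, 3 were called higher, 1 lower and 5 were not called, beside backgrounds of 21.9% higher and 21.3% lower over all genes. Slc25a5 (ANT2, chrX:36795651-36798807 of mm10, plus strand), the ADP/ATP carrier common in dividing cells, stood at 1105, 1149, 1116 and 1107 TPM in the LPL overexpression libraries, against 1030, 1047 and 1056 TPM in the controls. The groups do not overlap, but the gap between them is small beside the level. Its log2 fold change was 0.07 (SE 0.02, 95% interval 0.02 to 0.12, adjusted p = 0.0134), and without control replicate 1 the adjusted p was 0.111. Slc25a4 (ANT1, chr8:46206797-46211284, minus strand), the ADP/ATP carrier best known from heart and muscle, measured 685, 691, 676 and 672 TPM in the LPL overexpression libraries, against 505, 486 and 495 TPM in the controls. Every LPL overexpression library is far above every control. In the fit the log2 fold change was 0.43 (SE 0.02, 95% interval 0.38 to 0.48, adjusted p = 3.89e-21). As these ADP/ATP carriers have similar sequences, the counting may have divided some reads between them or left them out, and its treatment of reads that map to several places is not given in the sources used here. A pseudogene row, Slc25a5-ps, held 1 read over all libraries.

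The calcium-regulated ATP-magnesium/phosphate carriers, which trade adenine nucleotides for phosphate and so set the nucleotide pool of the matrix, moved in opposite directions. Slc25a23 (chr17:57043711-57059863, minus strand) stood at 3.55, 3.24, 3.27 and 3.46 TPM in the LPL overexpression libraries, against 1.04, 0.935 and 0.941 TPM in the controls. Every LPL overexpression library is at more than 3 times every control, at low levels throughout. edgeR put the log2 fold change at 1.77 (SE 0.13, 95% interval 1.51 to 2.03, adjusted p = 6.28e-17), and it is a 3.41-fold difference on 576 reads in the LPL overexpression libraries and 127 in the controls. On log2(TPM + 1) with limma, where the added 1 shrinks the change of low genes, it was 1.15. Slc25a24 (chr3:109123149-109168457, plus strand), much the more abundant of the 2, measured 124, 128, 128 and 127 TPM in the LPL overexpression libraries, against 162, 156 and 156 TPM in the controls. Groups do not overlap here, with every LPL overexpression library below every control. The fitted log2 change was -0.35 (SE 0.03, 95% interval -0.40 to -0.29, adjusted p = 2.51e-16). Slc25a25, another such carrier, averaged 9.78 ± 0.906 TPM in LPL overexpression and 8.87 ± 0.361 TPM in control and was not called (log2 fold change 0.11, adjusted p = 0.0989), although it passed with upper-quartile scaling (adjusted p = 0.0380) and without LPL overexpression replicate 2 (adjusted p = 0.0218). Slc25a41, a further ATP-magnesium/phosphate carrier, had no read in any library.

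Slc25a3 (chr10:91116574-91124059, minus strand), which imports the phosphate used by ATP synthase, stood at 245, 239, 249.9 and 251 TPM in the LPL overexpression libraries, against 252, 255 and 242 TPM in the controls. The groups overlap. Its fitted log2 change was -0.05 (SE 0.02, 95% interval -0.10 to 0.00, adjusted p = 0.130), and it was not called. Slc25a17 (chr15:81318921-81360765, minus strand), a peroxisomal carrier of coenzyme A and other nucleotide cofactors, measured 123, 127, 122 and 121 TPM in the LPL overexpression libraries, against 127, 120.2 and 119.6 TPM in the controls. Its groups overlap as well, and its log2 fold change of -0.01 (SE 0.04, adjusted p = 0.798) was not called. Slc25a42, an importer of coenzyme A, averaged 2.34 ± 0.300 TPM in LPL overexpression and 2.47 ± 0.621 TPM in control and was not called. Its relative Slc25a16 averaged 9.22 ± 0.746 TPM in LPL overexpression and 9.19 ± 0.608 TPM in control and was not called either. Slc25a31, known as the testis ADP/ATP carrier, had no read in any library. Summed over this group of 11 carriers the level was 2304 to 2358 TPM in the LPL overexpression libraries and 2085 to 2097 TPM in the controls.

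Carboxylate and aspartate-glutamate carriers, which export citrate and run the malate-aspartate shuttle, held 4 members called higher of 5 tested, beside backgrounds of 21.9% higher and 21.3% lower over all genes. None was called lower in edgeR, where none was lower at an unadjusted p under 0.05, and DESeq2 called 3 higher and 0 lower. No test was made of the group. Their median log2 fold change was 0.16, against 0.00 over all genes. Slc25a1 (chr16:17925211-17928219, minus strand), the carrier that exports citrate for cytosolic acetyl-CoA and lipid synthesis, stood at 58.9, 56.4, 60.1 and 58.5 TPM in the LPL overexpression libraries, against 33.2, 29.5 and 33.0 TPM in the controls. All LPL overexpression libraries are well above all controls. The log2 fold change was 0.85 (SE 0.05, 95% interval 0.76 to 0.94, adjusted p = 4.03e-22), a 1.80-fold difference. Slc25a10 (chr11:120491840-120499187, plus strand), which exchanges malate or succinate for phosphate, measured 45.3, 42.3, 45.8 and 45.4 TPM in the LPL overexpression libraries, against 34.2, 29.7 and 35.7 TPM in the controls. There is no overlap between the groups, and LPL overexpression replicate 2 is the lowest of its group. Its log2 fold change was 0.40 (SE 0.05, 95% interval 0.31 to 0.49, adjusted p = 1.19e-09). Slc25a12 (chr2:71271063-71367749, minus strand), the calcium-sensitive aspartate-glutamate carrier of brain and muscle, stood at 35.3, 35.3, 34.2 and 36.2 TPM in the LPL overexpression libraries, against 31.0, 31.0 and 31.0 TPM in the controls. Its controls are almost identical and every LPL overexpression library lies above them. In the fit the log2 fold change was 0.16 (SE 0.03, 95% interval 0.09 to 0.23, adjusted p = 8.87e-05).

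The other aspartate-glutamate carrier, Slc25a13 (citrin, chr6:6041218-6217173, minus strand), measured 74.8, 81.3, 81.6 and 77.3 TPM in the LPL overexpression libraries, against 77.9, 75.3 and 74.3 TPM in the controls. The groups overlap. edgeR put the log2 fold change at 0.03 (SE 0.03, 95% interval -0.04 to 0.09, adjusted p = 0.526), and it was not called. Slc25a11 (chr11:70644196-70647479, minus strand), which exchanges oxoglutarate for malate, stood at 164, 166, 164 and 157 TPM in the LPL overexpression libraries, against 147, 157 and 147 TPM in the controls. In TPM the groups barely separate, and in CPM they overlap. The fitted log2 change was 0.09 (SE 0.03, 95% interval 0.03 to 0.15, adjusted p = 0.0180), and the call is lost without control replicate 1 (adjusted p = 0.140) or control replicate 3 (adjusted p = 0.0698) and in DESeq2 (adjusted p = 0.0598). Slc25a11 overlaps the oppositely directed gene Rnf167 by 245 bases, and Rnf167 was itself called higher (log2 fold change 0.33, adjusted p = 7.32e-08). Slc25a21, the carrier of oxoadipate, had no read in any library.

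The stretch around the start of transcription is shown for Slc25a23 and Slc25a1, called members with large changes, and for the ADP/ATP pair. Sequences run from 250 bases before to 50 after the start, 5′ to 3′ on the strand of the gene, from RefSeq on GRCm38.p6, at chr17:57059814-57060113 (minus strand), chr16:17928170-17928469 (minus), chr8:46211013-46211312 (minus) and chrX:36795347-36795646 (plus). Capitals mark matches, on either strand, to CACGTG (the core E-box), CATGTG (a related E-box), GCGCATGCG (the NRF1 core), CCAAT and GGGCGG (the GC box). No 2 matches overlap in these 4.
Slc25a23: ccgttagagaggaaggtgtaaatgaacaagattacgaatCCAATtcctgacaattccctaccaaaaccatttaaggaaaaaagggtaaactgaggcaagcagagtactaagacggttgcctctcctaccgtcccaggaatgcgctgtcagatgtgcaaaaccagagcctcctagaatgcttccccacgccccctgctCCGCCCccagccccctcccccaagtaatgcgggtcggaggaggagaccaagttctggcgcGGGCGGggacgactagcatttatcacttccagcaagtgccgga
Slc25a1: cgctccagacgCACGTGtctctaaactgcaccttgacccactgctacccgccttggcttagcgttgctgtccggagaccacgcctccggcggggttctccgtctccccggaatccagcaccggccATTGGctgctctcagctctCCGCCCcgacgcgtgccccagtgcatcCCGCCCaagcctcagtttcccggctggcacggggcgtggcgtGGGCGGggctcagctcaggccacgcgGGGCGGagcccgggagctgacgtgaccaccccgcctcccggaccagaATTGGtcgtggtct
Slc25a4: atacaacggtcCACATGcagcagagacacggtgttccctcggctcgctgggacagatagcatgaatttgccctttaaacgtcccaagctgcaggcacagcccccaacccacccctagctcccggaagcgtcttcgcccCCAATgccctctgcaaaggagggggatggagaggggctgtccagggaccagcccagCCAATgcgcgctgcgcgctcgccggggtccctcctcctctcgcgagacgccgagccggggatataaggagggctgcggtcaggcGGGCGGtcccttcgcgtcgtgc
Slc25a5: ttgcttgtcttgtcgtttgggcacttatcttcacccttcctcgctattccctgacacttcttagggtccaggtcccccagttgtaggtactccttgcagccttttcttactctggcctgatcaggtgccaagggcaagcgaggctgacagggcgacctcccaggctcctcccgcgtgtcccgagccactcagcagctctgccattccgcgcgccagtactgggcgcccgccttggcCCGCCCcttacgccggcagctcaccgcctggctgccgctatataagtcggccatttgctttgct
Slc25a1 holds 7 matches and is the one of these 4 with CACGTG, while Slc25a5 holds a single GC box. The table gave 46 promoters for 36 of the 47 members. A member counted as holding a motif if any of its promoters did. The shares given next for all promoters are per promoter and include genes that were not tested. They are therefore not like-for-like backgrounds for the member counts. Of all 32851 promoters of this length, 7.15% hold CACGTG, 14.2% CATGTG, 1.75% GCGCATGCG, 37.4% CCAAT and 35.7% GGGCGG. The GC box is found in 26 of the 29 tested members with a promoter, among them 9 of 10 called higher, 5 of 5 called lower and 12 of 14 not called. CCAAT is found in 7 of the 10 called higher, 1 of the 5 called lower and 9 of the 14 not called. CACGTG is found in 2 called higher and 4 not called, CATGTG in 1 of each, and GCGCATGCG in none. A match describes letters in this stretch and is not evidence of binding.

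Amino acid and carnitine carriers changed in both directions: 2 of 6 tested were called higher, 2 lower and 2 not. The backgrounds over all genes were 21.9% higher and 21.3% lower. Slc25a29 (chr12:108825873-108835883, minus strand), a carrier of basic amino acids, measured 3.68, 3.01, 3.96 and 2.85 TPM in the LPL overexpression libraries, against 1.92, 2.13 and 1.82 TPM in the controls. The groups do not overlap, though LPL overexpression replicates differ among themselves. Its fitted log2 change was 0.75 (SE 0.16, 95% interval 0.43 to 1.07, adjusted p = 0.000105). Slc25a38 (chr9:120110374-120124504, plus strand), the glycine carrier that feeds heme synthesis, stood at 13.7, 13.3, 13.2 and 11.9 TPM in the LPL overexpression libraries, against 11.0, 9.96 and 11.1 TPM in the controls. Groups do not overlap here. The log2 fold change was 0.26 (SE 0.07, 95% interval 0.11 to 0.41, adjusted p = 0.00322). Slc25a20 (chr9:108662088-108684641, plus strand), which brings acylcarnitines into the matrix for fatty acid oxidation, measured 19.2, 19.8, 19.7 and 18.4 TPM in the LPL overexpression libraries, against 20.3, 21.0 and 21.2 TPM in the controls. Every LPL overexpression library is below every control by a small margin. Its log2 fold change was -0.14 (SE 0.04, 95% interval -0.23 to -0.05, adjusted p = 0.00855), and the call is lost without LPL overexpression replicate 4 (adjusted p = 0.0672), without control replicate 3 (adjusted p = 0.0571), in DESeq2 (adjusted p = 0.0764) and in limma on TPM (adjusted p = 0.0508).

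Slc25a22 (chr7:141429744-141437892, minus strand), a glutamate carrier, stood at 13.3, 11.8, 12.9 and 13.0 TPM in the LPL overexpression libraries, against 14.5, 13.9 and 13.7 TPM in the controls. There is no overlap between the groups. In the fit the log2 fold change was -0.17 (SE 0.05, 95% interval -0.27 to -0.07, adjusted p = 0.00381), and in limma on TPM the adjusted p was 0.0543. Slc25a15, the ornithine carrier of the urea cycle, averaged 14.3 ± 0.309 TPM in LPL overexpression and 14.1 ± 0.247 TPM in control, and Slc25a44, a carrier of branched-chain amino acids, 28.1 ± 1.52 TPM in LPL overexpression and 27.3 ± 0.561 TPM in control. Neither was called. Slc25a18, another glutamate carrier, had 0 reads in the LPL overexpression libraries and 1 in the controls.

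Of the carriers of cofactors, nucleotides, glutathione and iron, 1 of 10 tested was called higher, 2 lower and 7 not. Over all genes 21.9% were called higher and 21.3% lower. Slc25a33 (chr4:149744036-149774277, minus strand), a pyrimidine nucleotide carrier, measured 9.24, 8.43, 10.9 and 11.2 TPM in the LPL overexpression libraries, against 8.91, 6.996 and 7.20 TPM in the controls. LPL overexpression replicate 2 lies below control replicate 1, and the other LPL overexpression libraries lie above all controls. edgeR put the log2 fold change at 0.34 (SE 0.11, 95% interval 0.12 to 0.55, adjusted p = 0.00888), and the call is lost without control replicate 2 (adjusted p = 0.0733) and in DESeq2 (adjusted p = 0.0743). Slc25a37 (mitoferrin 1, chr14:69241848-69285112, minus strand), which brings iron to the matrix, stood at 87.9, 87.7, 88.9 and 82.8 TPM in the LPL overexpression libraries, against 92.6, 93.2 and 88.9 TPM in the controls. In CPM the groups do not overlap, and in TPM they touch. The fitted log2 change was -0.10 (SE 0.03, 95% interval -0.16 to -0.05, adjusted p = 0.00141), and in limma on TPM the adjusted p was 0.0758. Slc25a28 (mitoferrin 2), the related iron carrier, measured 79.6, 75.9, 78.7 and 75.2 TPM in the LPL overexpression libraries, against 73.8, 70.7 and 70.2 TPM in the controls. All LPL overexpression libraries are above all controls, but it was not called. Its fitted log2 change was 0.08 (SE 0.04, 95% interval 0.00 to 0.16, adjusted p = 0.0884), and it passed with upper-quartile scaling (adjusted p = 0.0283) and in limma on TPM (adjusted p = 0.0144).

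Slc25a40 (chr5:8422850-8454797, plus strand), of the glutathione carriers, stood at 7.88, 7.75, 7.80 and 7.79 TPM in the LPL overexpression libraries, against 8.89, 8.66 and 7.68 TPM in the controls. The groups overlap, since control replicate 3 is as low as the LPL overexpression libraries. The log2 fold change was -0.14 (SE 0.05, 95% interval -0.24 to -0.03, adjusted p = 0.0339), and the call is lost in 10 of 16 alternatives with an adjusted p of 0.0506 to 0.225, among them those without control replicate 1 (0.196), control replicate 2 (0.156) and LPL overexpression replicates 2, 3 and 4 (0.0624, 0.0591 and 0.0632). Slc25a39 (chr11:102402985-102407946, minus strand), needed for glutathione import to mitochondria, measured 185, 180.2, 185 and 186 TPM in the LPL overexpression libraries, against 184, 180.4 and 189.7 TPM in the controls. The groups overlap. Its log2 fold change was -0.03 (SE 0.03, 95% interval -0.08 to 0.02, adjusted p = 0.379), and it was not called. Slc25a51, the NAD carrier, stood at 53.0, 54.5, 53.6 and 54.1 TPM in the LPL overexpression libraries, against 54.6, 54.9 and 56.2 TPM in the controls. The LPL overexpression libraries lie just below the controls, and its log2 fold change of -0.06 (SE 0.03, adjusted p = 0.0883) was not called. Not called either were Slc25a26 (S-adenosylmethionine), Slc25a32 (FAD and folate) and Slc25a36 (pyrimidine nucleotides), with absolute log2 fold changes no larger than 0.13.

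None of the 3 uncoupling-protein-like carriers was called by edgeR or DESeq2, and none had an unadjusted p under 0.05 in edgeR. Over all genes edgeR called 43.2%. Slc25a30 (chr14:75761999-75787037, minus strand) measured 76.7, 81.2, 77.6 and 72.5 TPM in the LPL overexpression libraries, against 72.1, 72.4 and 75.7 TPM in the controls, and the groups overlap. In the fit the log2 fold change was 0.04 (SE 0.04, 95% interval -0.04 to 0.13, adjusted p = 0.438). Slc25a14 averaged 11.3 ± 0.742 TPM in LPL overexpression and 10.3 ± 0.721 TPM in control and Slc25a27 3.32 ± 0.388 TPM in LPL overexpression and 3.72 ± 0.306 TPM in control.

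Among outer-membrane and less characterised members, 1 of 5 tested was called higher, 1 lower and 3 not, beside backgrounds of 21.9% higher and 21.3% lower. Slc25a35 (chr11:68968131-68974365, plus strand) stood at 2.02, 1.37, 1.51 and 1.21 TPM in the LPL overexpression libraries, against 0.431, 0.737 and 0.576 TPM in the controls. All LPL overexpression libraries lie above all controls, at low levels. edgeR put the log2 fold change at 1.34 (SE 0.23, 95% interval 0.89 to 1.80, adjusted p = 2.04e-06), on 179 reads in the LPL overexpression libraries and 53 in the controls. With limma it was 0.90 on log2(TPM + 0.5) and 0.67 on log2(TPM + 1), scales on which the change of a low gene shrinks. This gene overlaps the oppositely directed Rangrf over 1882 bases, and reads of the opposite orientation over Slc25a35 numbered 915 in the LPL overexpression libraries and 670 in the controls. Rangrf was not called (log2 fold change 0.04, adjusted p = 0.733). Slc25a45 (chr19:5877808-5885766, plus strand) measured 39.3, 40.7, 39.9 and 37.5 TPM in the LPL overexpression libraries, against 43.7, 41.1 and 44.2 TPM in the controls. The groups do not overlap, with LPL overexpression lower. The fitted log2 change was -0.15 (SE 0.04, 95% interval -0.24 to -0.07, adjusted p = 0.00187). Slc25a46, an outer-membrane protein of mitochondrial shape, averaged 29.9 ± 0.485 TPM in LPL overexpression and 29.1 ± 1.24 TPM in control and was not called, as were Slc25a47 and Slc25a53.

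Slc25a43 (chrX:36743659-36777202, plus strand) was read under LPL overexpression only and was removed by the filter on low counts. It had 6, 10, 8 and 10 reads in LPL overexpression replicates 1 to 4, against 0 reads in each control. In TPM this is 0.456, 0.630, 0.594 and 0.673 in the LPL overexpression libraries, and it is listed at 0 in the controls. With the control group set at a floor of 3 reads, the pooled reads gave an 8.77-fold difference. This leaves out the counting error of the 34 reads in the LPL overexpression libraries. Without the filter on low counts its adjusted p was 8.68e-08 in edgeR, and 0.000198 in DESeq2. Slc25a43 was singled out because its reads were nearly all in 1 group, so these p-values are no separate support for the difference. It lies 18448 bases upstream of Slc25a5 on the same strand, with no listed gene between. The other members not tested had few or no reads: Slc25a2, Slc25a34 and Slc25a48 had 6, 6 and 4 in the LPL overexpression libraries, against 10, 4 and 1 in the controls, and Slc25a21, Slc25a31, Slc25a41 and Slc25a54 had none in any. A count of 0 over a group allows up to 0.0283 CPM in the LPL overexpression libraries and 0.0366 CPM in the controls.

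**Figure D3:**
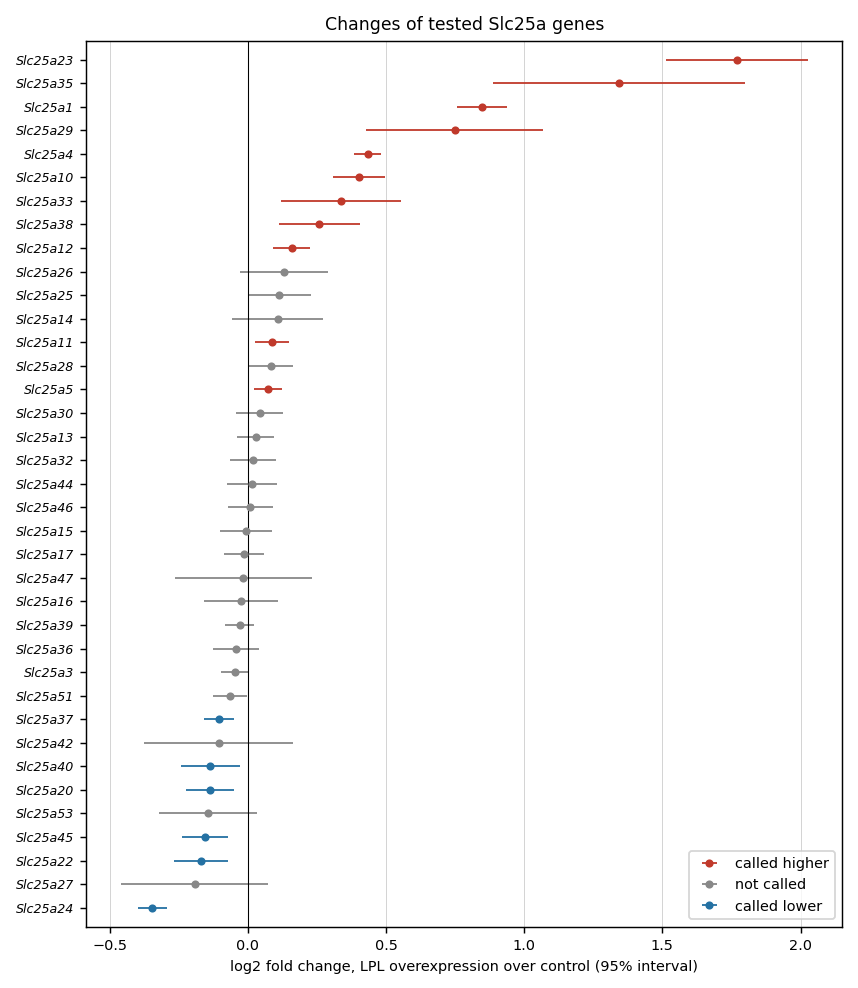
Log2 fold change of LPL overexpression over control for 37 of the 38 tested members, ordered by size, as points with 95% intervals. Members called higher are red, called lower blue and not called grey. Slc25a23 (1.77) and Slc25a35 (1.34) lie farthest above 0 and Slc25a24 (-0.35) farthest below.

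The 21 members tested and not called had absolute log2 fold changes up to 0.19, and their 95% intervals all lay between -0.46 (the lower bound of Slc25a27) and 0.29 (the upper bound of Slc25a26). A p that misses the threshold does not show that a member was the same in both groups.

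Shares within pairs of related carriers were set side by side as the percent of the pair's summed TPM given by the first-named gene, tested by a two-sided exact permutation test over the 7 libraries and adjusted over the 10 pairs that could be tested of 12 listed. Slc25a4 made up 38.3%, 37.6%, 37.7% and 37.8% of the ADP/ATP pair in the LPL overexpression libraries, against 32.9%, 31.7% and 31.9% in the controls. Groups do not overlap here, and the difference was 5.68 percentage points (exact permutation p = 0.0286, adjusted p = 0.0571). The share of Slc25a23 with Slc25a24 averaged 2.60% ± 0.142 in the LPL overexpression libraries and 0.611% ± 0.0218 in the controls. That of Slc25a10 with Slc25a11 averaged 21.5% ± 0.883 in LPL overexpression and 18.1% ± 1.89 in control. That of Slc25a28 with Slc25a37 averaged 47.1% ± 0.549 in LPL overexpression and 43.9% ± 0.654 in control. The share of Slc25a20 with Slc25a29 was lower, at 85.1% ± 1.80 in LPL overexpression and 91.4% ± 0.655 in control. These 5 pairs reached 0.0286, the smallest p that the 35 ways of choosing 4 of 7 libraries can give, and none passed after adjustment. Over 10 pairs, a pair at this p can pass only if several others reach it too. Missing the threshold therefore says little about any single pair. Slc25a12 with Slc25a13 did not overlap either, at 31.0% ± 1.252 in LPL overexpression and 29.0% ± 0.487 in control (exact permutation p = 0.0571). The other 4 pairs overlapped, with exact permutation p from 0.0857 to 0.943.

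**Figure D4:**
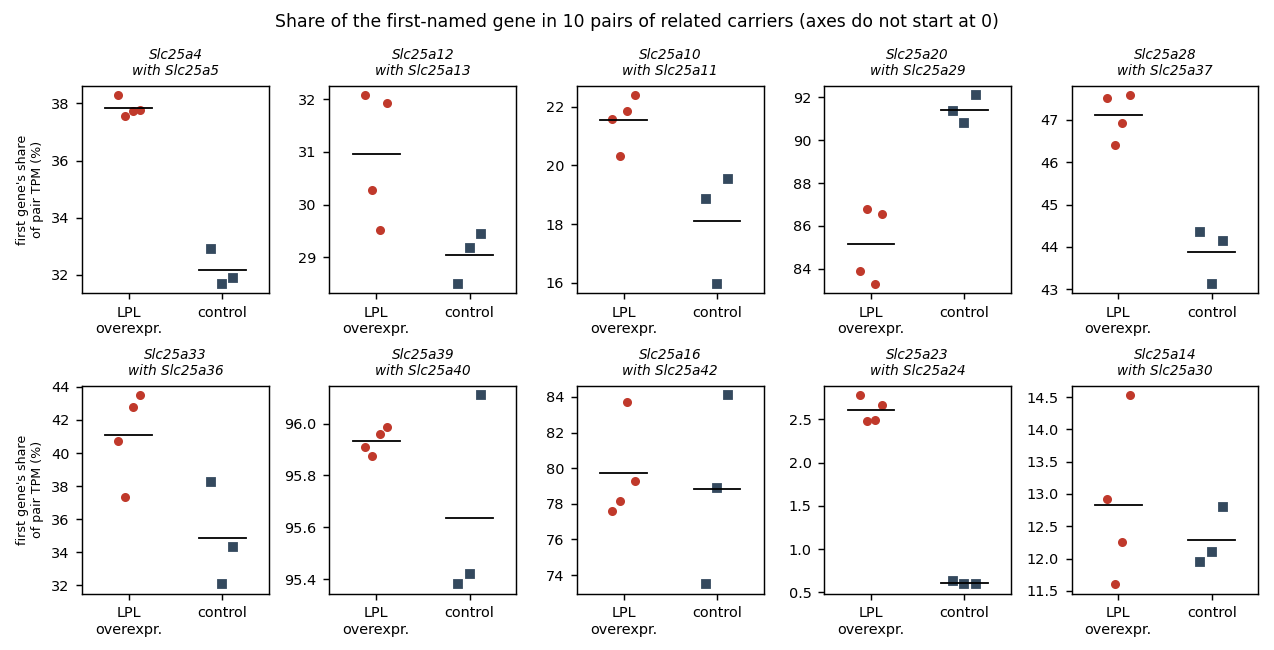
Percent of the pair's summed TPM given by the first-named gene in 10 pairs of related carriers, for each LPL overexpression library (left) and control library (right), with the group mean as a line; axes do not start at 0. In Slc25a4 with Slc25a5 the LPL overexpression libraries sit between 37.6% and 38.3%, all above the controls, and in Slc25a20 with Slc25a29 they sit below them.

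Genes that work with the carriers were taken from lists chosen for their function, with earlier results of these data known. For each named gene, the value first in the parenthesis is the log2 fold change. Of 12 enzymes that work with the citrate and malate-aspartate carriers, 5 were called higher and none lower (0 at an unadjusted p under 0.05, and 4 higher and 0 lower in DESeq2), with a median log2 fold change of 0.05. Idh1, which makes cytosolic NADPH from isocitrate, averaged 32.7 ± 1.53 TPM in LPL overexpression and 24.3 ± 1.13 TPM in control (log2 fold change 0.40, adjusted p = 2.59e-09). Mdh1, the cytosolic malate dehydrogenase, averaged 254 ± 3.38 TPM in LPL overexpression and 231 ± 1.78 TPM in control (0.11, adjusted p = 0.000514). Acaca, which makes malonyl-CoA, averaged 15.6 ± 0.209 TPM in LPL overexpression and 14.0 ± 0.269 TPM in control (0.13, adjusted p = 0.000756). In carnitine-dependent fatty acid entry 3 of 6 were called higher and 1 lower, with a median of 0.06, Slc25a20 not being in this list. Cpt1a, which forms acylcarnitine at the outer membrane, averaged 82.4 ± 3.01 TPM in LPL overexpression and 66.5 ± 0.906 TPM in control (0.28, adjusted p = 8.88e-11). Slc25a20, which takes up acylcarnitine, was lower by a small margin (-0.14, adjusted p = 0.00855). Its call held in 11 of 17 runs, counting the reported one, and that of Cpt1a in 17.

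Of 10 ATP synthase and adenylate kinase genes tested, 7 were called higher and none lower (1 lower at an unadjusted p under 0.05, and 6 higher and 0 lower in DESeq2), with a median log2 fold change of 0.07. The ATP synthase genes called had log2 fold changes of only 0.06 to 0.08, and each lost its call in some alternatives. The 3 genes not called were all of ATP synthase. Ak3, of the mitochondrial matrix, averaged 107 ± 3.17 TPM in LPL overexpression and 91.2 ± 2.24 TPM in control (0.20, adjusted p = 8.21e-07), and Ak4 had 93 reads in LPL overexpression and 9 in control (2.91, adjusted p = 2.11e-08). Regulators of mitochondrial biogenesis gave 2 higher, 1 lower and 7 not called. Ppargc1a (PGC-1 alpha) averaged 1.20 ± 0.0953 TPM in LPL overexpression and 0.246 ± 0.0776 TPM in control (2.24, SE 0.21, adjusted p = 8.08e-13), and Tfam, which packages mitochondrial DNA, averaged 43.2 ± 0.264 TPM in LPL overexpression and 37.6 ± 1.17 TPM in control (0.17, adjusted p = 0.000118). Of the 13 genes of TIM22 import, 4 were called higher, 2 lower and 7 not. Tomm20, an outer-membrane receptor, fell, averaging 51.6 ± 0.945 TPM in LPL overexpression and 62.2 ± 0.791 TPM in control (-0.30, adjusted p = 2.28e-11), and Timm10b, a small chaperone of the intermembrane space, averaged 13.0 ± 0.977 TPM in LPL overexpression and 9.98 ± 0.787 TPM in control (0.36, adjusted p = 2.34e-05). Of 16 other transport proteins of the mitochondrial membranes, 5 were called higher and 2 lower. Sfxn1, a serine transporter of the inner membrane, averaged 111 ± 1.21 TPM in LPL overexpression and 97.8 ± 1.81 TPM in control (0.15, adjusted p = 3.95e-05). Of 5 carriers of the family under other symbols 2 were tested, Mtch1 and Mtch2, and these were not called by edgeR or DESeq2, and neither had an unadjusted p under 0.05. Each count stands beside backgrounds of 21.9% higher and 21.3% lower over all genes.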

How the data were processed

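Total RNA of MS-1 cells was sequenced in 7 libraries (TruSeq stranded total-RNA kit, per the labels' protocols), 4 of LPL overexpression and 3 of control. Groups and replicate numbers came from the titles. The authors aligned reads with STAR to mm10, per the submitters' processing notes; neither tool version nor annotation is given in the sources used here. The deposited counts are whole reads per gene, given for each orientation per the file headers. Reverse-orientation reads (97.0% to 97.1% of oriented reads) were used. The deposited TPM over all genes were used as levels. The authors' FPKM columns, and a TPM set scaled to autosomal genes by the authors and treated as a score, were not used.

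Counts were tested with edgeR 4.0.16 (TMM, filterByExpr, robust quasi-likelihood F test, group as the only term, Benjamini-Hochberg over 13639 genes, threshold 0.05) in R 4.3.3, and the steps were tested on simulated data. SE was obtained by dividing the size of the log2 fold change by the root of the F statistic. A floor of 3 reads over a group covers counting error only. The exact permutation test used SciPy 1.17.1. Alternatives were DESeq2 1.42.0, limma 3.58.1 on log2(TPM + 0.5) and log2(TPM + 1), other scalings and filters, both orientations, a replicate block and each library left out.

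The members and lists were chosen with earlier results of these data known. Values per library are given for the 10 members with the highest control TPM, called members, members with at most 3 reads in 1 group and at least 10 in the other, and pairs whose shares do not overlap. Of each pathway list up to 3 called members with the lowest adjusted p may be named. Replicates differed by more than sampling noise (chi-square per degree of freedom 1.65 to 4.13), so none was merged. Promoters came from RefSeq on GRCm38.p6. Results of 2 genes are not reported here by name, and both remain in the counts.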

Additional observations from a re-analysis of the deposited data

Results flagged for a closer look

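Among the 38 tested members the 4 LPL overexpression libraries were examined for a library far from the other 3, by Dixon's ratio of the gap to the whole range at its 95% critical value, which chance alone passes in about 1 of 20 groups. In Slc25a10, the dicarboxylate carrier, replicate 2 was the lowest, with a ratio of 0.866. It had 44.2 CPM, against 47.0 to 47.4 CPM in the other LPL overexpression libraries, and the controls had 31.6 to 37.98 CPM. In Slc25a37, mitoferrin 1, replicate 4 was the lowest, with a ratio of 0.864. It had 149.7 CPM, against 159 to 161 CPM in the other LPL overexpression libraries, and the controls had 165 to 173 CPM.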

How the results depend on the processing

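Over 16 alternatives the number of members called higher ran from 9 to 13 (11 as reported; 9 to 12 with each library left out) and called lower from 2 to 6 (6 as reported; 4 to 6 with each library left out). The 2 lower came from limma on log2(TPM + 0.5) and again, also 2, on log2(TPM + 1); the cause was not tested. Of the 17 calls, 10 held in every alternative, and no member past the threshold changed sign. Lost in at least 1 were Slc25a5, Slc25a11, Slc25a20, Slc25a22, Slc25a33, Slc25a37 and Slc25a40, and Slc25a25 and Slc25a28 passed in at least 1. With the replicate block, 11 members were higher and 5 lower, and Slc25a20 lost its call (adjusted p = 0.0557). Same-numbered libraries deviated from their group means with correlations of -0.02, -0.04 and 0.02 over the genes tested. With means of so few libraries, such values cannot decide whether the numbers pair them. No pair share passed adjustment in any alternative, and with a library left out that test cannot reach the threshold. On log2(TPM + 1), where the added 1 shrinks the change of low genes, the log2 fold change of Slc25a29 was 0.56, under 1.5-fold. Depth limits the members with few reads, such as Slc25a35 with 53 in the controls.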
